A study of Mus musculus with 2 samples.

Results

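The genes described here govern the G1 phase of the cell cycle: the D-type cyclins (Ccnd1, Ccnd2, Ccnd3), the E-type cyclins (Ccne1, Ccne2), the cyclin-dependent kinases Cdk4 and Cdk6, and the kinase inhibitors Cdkn1a (p21), Cdkn1b (p27) and Cdkn2c (p18). They were chosen by name, and their probes were found through the RefSeq accession that the array gives for each gene probe. Of the 10 listed genes, 8 had a probe and 9 probes were found, among 10146 named genes and 21052 gene probes on the array. Ccnd1 had a pair of probes, and Ccnd2 and Ccne2 were not matched to any probe and are not analysed here.

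RNA came from EB5 mouse embryonic stem (ES) cells, grown on gelatin with no feeder layer, that were given Klf4 siRNA together with the plasmid pCAGEGFP-IP. Puromycin was added at 24 h to enrich transfected cells, and RNA was taken 24 h later. Each of 2 samples (siKlf4 ES cells, n = 2) was labelled with Cy3 and hybridised on a two-colour oligonucleotide array against Universal Mouse Reference RNA in Cy5, an equal pool of 11 mouse cell lines, from sources that range from whole embryo and blood cell types to epithelial organs, muscle and skin. ES cells without Klf4 siRNA and arrays with the dyes exchanged are not analysed here, so the ratios compare siKlf4 ES cells with other cell types and hold no estimate of the effect of the siRNA, and any dye effect stays in them. The labels do not say whether the samples were separate cultures, so the p-values measure only the spread between these arrays, which may be technical.

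Cells pass from G1 into DNA synthesis when cyclin-dependent kinases phosphorylate the retinoblastoma protein and so release E2F transcription factors. D-type cyclins activate Cdk4 and Cdk6 in response to growth factors, cyclin E activates Cdk2, the INK4 inhibitors such as p18 block Cdk4 and Cdk6, and the Cip/Kip inhibitors p21 and p27 block cyclin E-Cdk2. Mouse ES cells are known for a short G1 phase with high cyclin E-Cdk2 activity and little D-type cyclin or inhibitor, whereas most cells in a pool of differentiated lines depend on growth factors to leave G1. Klf4 is known in other cells as an activator of Cdkn1a and a repressor of Ccnd1.

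The CDK inhibitors are shown first by the oligonucleotides that measured them, because the ratio of each rests on a single spot per array. Each is a 60-base probe, given 5′ to 3′ as deposited with the arrays; where it lies in its transcript was not determined.
Cdkn1a: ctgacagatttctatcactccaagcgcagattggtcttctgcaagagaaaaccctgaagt
Cdkn1b: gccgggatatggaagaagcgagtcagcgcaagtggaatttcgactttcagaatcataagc
Cdkn2c: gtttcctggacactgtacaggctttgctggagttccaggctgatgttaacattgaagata

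Against the reference pool, the ES cells had about 4-fold more Ccne1 RNA and between 3-fold and 4-fold less RNA of Cdkn1a and Cdkn2c. Ccnd1 was lower as well, 2.31-fold by its brighter probe and 1.28-fold by its dimmer one. Ccnd3 was slightly higher, Cdk4 and Cdk6 stood close to the pool, and Cdkn1b was called lower but was not above the negative controls in the ES cells. Of the 8 genes with a probe, 2 passed as higher, 4 passed as lower and 2 did not pass (limma, adjusted p under 0.05 over 21028 probes, same sign on both arrays). Over all probes, 31.6% were called higher and 31.4% lower at this threshold, so the count without a limit on size says little about these genes. With at least a 2-fold difference in addition, 1 of the 8 was higher and 4 were lower, against 5.08% and 5.19% of all probes. The 4 include Cdkn1b, whose log2 ratio was -0.83, within 2-fold, with its ES signal raised to the 95th percentile of the negative controls. Without background correction Ccnd1 (-0.99) and Cdkn1b (-0.28) lay within 2-fold. Cdkn1a (-1.01) and Cdkn2c (-1.02) then stood at about 2-fold, while Ccne1 stayed at 2.05. The median log2 ratio of the 8 genes was -0.57, or -0.091 over the 7 genes without Cdkn1b, beside -0.0074 for all probes. All 9 probes had the same sign on both arrays, and the arrays differed by between 0.0084 and 0.19 in log2 ratio, where the median probe differed by 0.059.

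**Figure D1:**
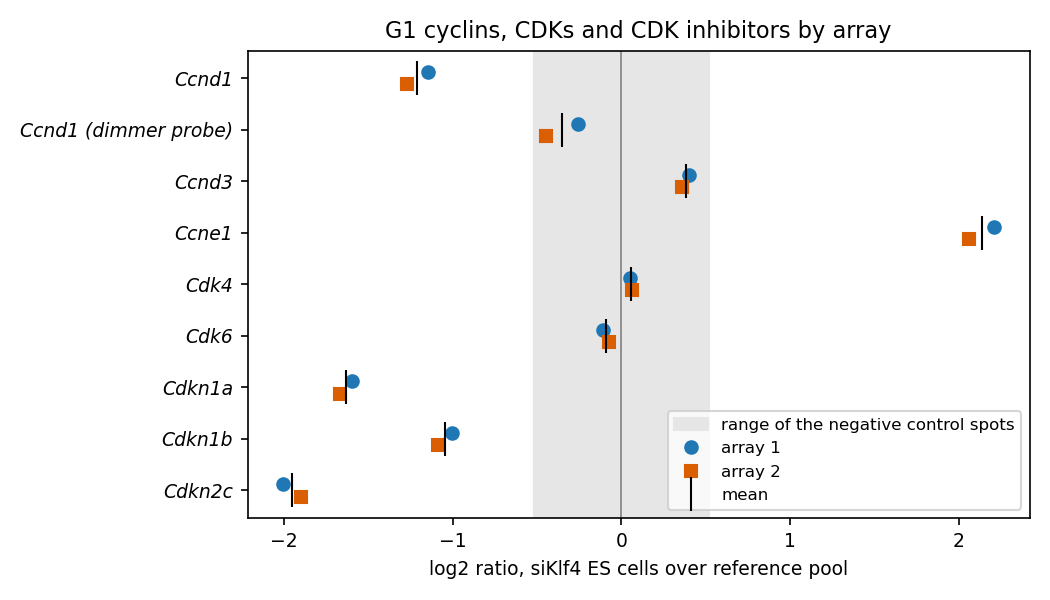
The log2 ratio of siKlf4 ES cells over the reference pool is plotted for each of the 9 probes, with a circle for array 1, a square for array 2 and a bar for their mean; the grey band reaches to the largest absolute log2 ratio of a negative control spot, 0.52. Ccne1 lies alone at 2.14 on the right, Ccnd1 (brighter probe), Cdkn1a, Cdkn1b and Cdkn2c lie left of the band on both arrays, and the other probes lie inside it.

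Signals are given as mean spot intensity above the local background, in arbitrary units that are not compared between probes. The channels are not on a common scale before correction and normalisation, so sizes and directions are taken from the log2 ratios. The median gene probe stood at 308 and 355 units in the ES channel and at 246 and 264 units in the reference channel. Negative control spots, made to bind no transcript, had medians of 129 and 138 units in Cy3 (ES cells) against 28.5 and 32.3 in Cy5 (reference). Their 95th percentile, which was 155 and 178 units for Cy3 and 40.9 and 58.4 for Cy5, served as the limit below which a probe counts as not measured; 8 of the 9 probes lay above it in both channels on both arrays. Of the 162 negative control spots, 115 also passed an adjusted p under 0.05 (limma), with log2 ratios up to 0.52, so a passing ratio inside that range is not distinguished from a spot without target.

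Markers of the labelled cell type were read first. Of 12 measured ES cell markers, 11 were higher than in the pool (median log2 ratio 3.52), among them Sox2 at 5.69 and Pou5f1 at 2.86, while Fgf4 stood at 0.00 and Esrrb did not exceed the limit in either channel. All 9 measured fibroblast and matrix markers were lower (median -2.95), as were all 3 macrophage markers (median -2.12), 4 of 6 primitive endoderm markers and 4 of 5 trophectoderm markers. Over all probes, 31.6% were called higher and 31.4% lower. Ratios outside the range of the negative control spots were held by 10 ES cell markers. So were those of 3 of the lower primitive endoderm and 3 of the lower trophectoderm markers. Higher were the primitive endoderm marker Lama1 at 1.36 and the trophectoderm marker Hand1 at 0.11, the latter inside that range. In the ES channel, 2 of the 9 fibroblast markers (Lox and Postn) were below the limit on both arrays, and all the primitive endoderm, trophectoderm and macrophage markers were above it on at least 1 array. Their part in the ratios of the G1 genes was not tested. In RNA from bulk cells, fewer cells of a type and less RNA per cell cannot be told apart.

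Klf4, the target of the siRNA, read 1826 and 2542 units in the ES channel and 1518 and 1603 units in the reference. Its log2 ratio was 0.43 and 0.59, a mean of 0.51 or 1.42-fold above the pool (adjusted p = 0.000463, limma). That mean lies inside the range of the negative control spots, which reaches 0.52, although its signals were above their limit in both channels. It ran from 0.31 to 0.54 over the settings that used both arrays. Without ES cells that lack the siRNA, this value does not check the knockdown.

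Ccne1, the cyclin that drives Cdk2 at entry into S phase, read 11700 and 14653 units in the ES cells and 2693 and 3102 units in the reference. Before normalisation the ES values lay above the reference values on both arrays. The log2 ratio was 2.21 on array 1 and 2.06 on array 2, with a mean of 2.14 ± 0.10 (SD, n = 2), equal to 4.40-fold (adjusted p = 2.23e-06, limma; 95% interval 2.01 to 2.26). Among all tested probes this ratio lay at percentile 99.3. It ran from 2.05 to 2.14 over the settings that used both arrays.

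Ccnd1, the D-type cyclin most closely tied to growth factor signals, read 1465 and 1494 units in the ES cells and 3610 and 3396 units in the reference by its brighter probe. The ES values lay below the reference values on both arrays before normalisation. The log2 ratios were -1.15 and -1.27, with a mean of -1.21 ± 0.085 (SD, n = 2), so the reference was 2.31-fold higher (adjusted p = 1.01e-05, limma). The dimmer Ccnd1 probe gave a smaller difference, with 750.1 and 750.2 units in the ES cells against 969 and 954 in the reference. Its log2 ratio was -0.35 ± 0.13 (adjusted p = 0.00283, limma), a size that negative control spots also reach, although this probe lay above their signal limit in both channels. The probes of this gene were thus 0.89 and 0.82 apart on the 2 arrays, a gap several times the difference between arrays of either probe. Of 240 genes with several probes, 32 (13.3%) had a gap at least as wide, and the median gap was 0.27. Both probes lay below the pool, and the size of the difference depended on which was read: their mean was -0.78.

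Ccnd3, the D-type cyclin best known from lymphoid cells, went the other way. It read 343 and 368 units in the ES cells and 197 and 196 units in the reference. The log2 ratio was 0.40 and 0.36, equal to 1.30-fold (adjusted p = 0.00044, limma), which lies inside the range of the negative control spots and fell to 0.15 without background correction. The ratios of Ccnd3 and Ccnd1 differed by 1.55 and 1.63 on the 2 arrays, and those of Ccne1 and Ccnd1 by 3.36 and 3.33. The balance of Ccne1 over Ccnd1 RNA was therefore 10.2-fold higher in the ES cells than in the pool by the brighter Ccnd1 probe, a value without a test. By the mean of both Ccnd1 probes the log2 difference was 2.92.

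Neither catalytic partner of the D-type cyclins passed the test. Cdk4 read 16193 and 18721 units in the ES cells and 16242 and 15967 units in the reference before normalisation. Its log2 ratio was 0.06 ± 0.0060 (SD, n = 2; adjusted p = 0.222, limma), with a 95% interval from -0.04 to 0.15. Both ends of the interval lie far within a 2-fold difference. Cdk6, the second kinase of this pair and one with high levels in blood cell lines, read 911 and 1262 units in the ES cells and 1079 and 1268 units in the reference. Its log2 ratio was -0.09 ± 0.027 (adjusted p = 0.082, limma; 95% interval -0.19 to 0.0033). It was called lower, at -0.32 (adjusted p = 0.000974, limma), when the arrays were centred on their median instead of by loess, and over the alternatives its adjusted p ran from 0.000974 to 0.218. Cdk4 was called higher, at 0.11 (adjusted p = 0.0339, limma), without background correction; over the alternatives its adjusted p ran from 0.0339 to 0.951.

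The INK4 and Cip/Kip genes Cdkn2c and Cdkn1a had the lowest ratios of the 8. Cdkn2c, the INK4 protein p18, which binds Cdk4 and Cdk6, read 241 and 297 units in the ES cells and 863 and 906 units in the reference. Its log2 ratios of -2.01 and -1.90 gave a mean of -1.95 ± 0.075 (SD, n = 2), with the reference 3.87-fold higher (adjusted p = 2.06e-06, limma). Its ratio lay at percentile 1.75 among all tested probes, and that of Cdkn1a at 2.44.

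Cdkn1a, the Cip/Kip protein p21 and a main p53 target, read 405 and 452 units in the ES cells and 1253 and 1295 units in the reference. On both arrays the ES channel lay under the reference channel before normalisation. The log2 ratios were -1.60 and -1.67, with a mean of -1.63 ± 0.051, and the reference was 3.10-fold higher (adjusted p = 2.67e-06, limma). Cdkn2c and Cdkn1a differed from each other in log2 ratio by -0.41 and -0.23 on the 2 arrays.

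Cdkn1b, the Cip/Kip protein p27, read 146 and 151 units in the ES cells, under the limit of that channel on both arrays, and 152 and 155 units in the reference, above the limit of that one. These signals above the local background were thus nearly equal between the channels before normalisation. The fitted log2 ratio after background correction and normalisation was -1.05 ± 0.059 (SD, n = 2; adjusted p = 1.19e-05, limma). Without background correction the normalised ratio was -0.28, so the size of this difference was not determined and no fold is given.

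**Figure D2:**
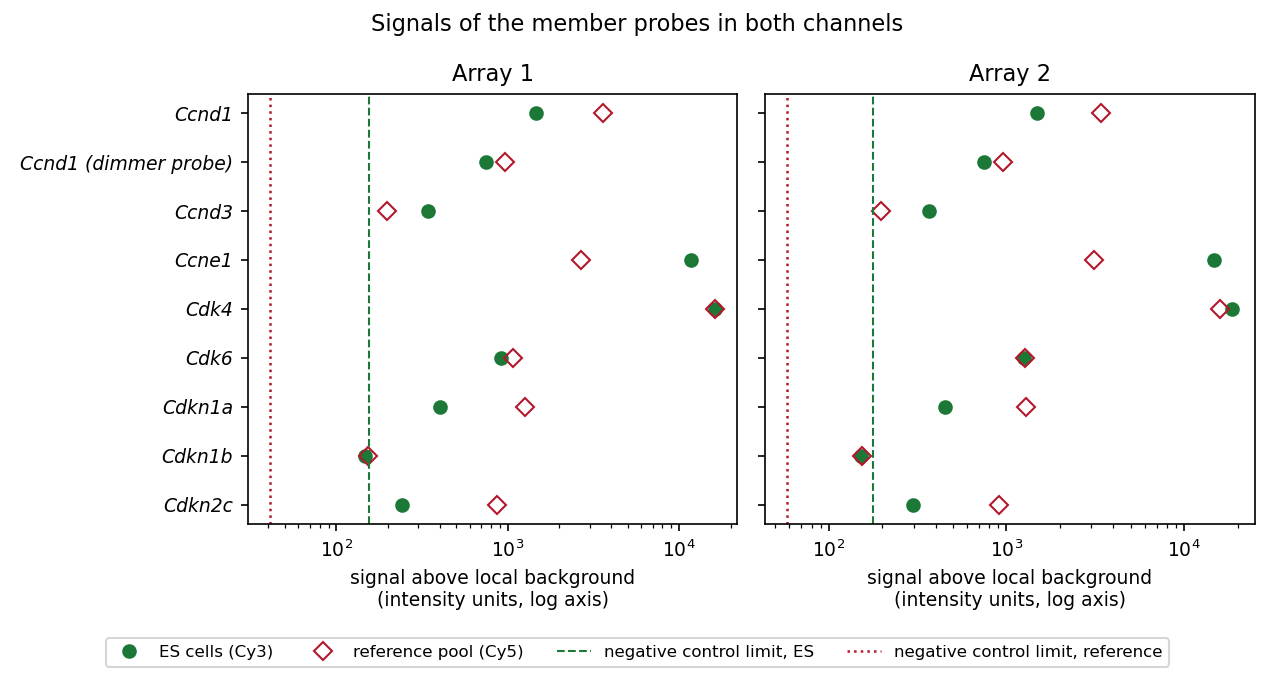
Signal above local background in intensity units (log axis) is plotted for each probe, in the ES cells (filled circles) and the reference pool (open diamonds), with array 1 on the left and array 2 on the right; vertical lines mark the negative control limit of each channel. The Ccne1 circle lies to the right of its diamond, the Ccnd1, Cdkn1a and Cdkn2c circles lie to the left of theirs, and the Cdkn1b circle lies left of the ES limit.

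The inhibitors moved most of the 8 genes when the background was not corrected. Cdkn2c then stood at -1.02, Cdkn1a at -1.01, the brighter Ccnd1 probe at -0.99 and Cdkn1b at -0.28, all still lower by an adjusted p under 0.05 (limma). The direction of these genes and of Ccne1 was the same in the scanner software's own processed signals and with median centring.

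**Figure D3:**
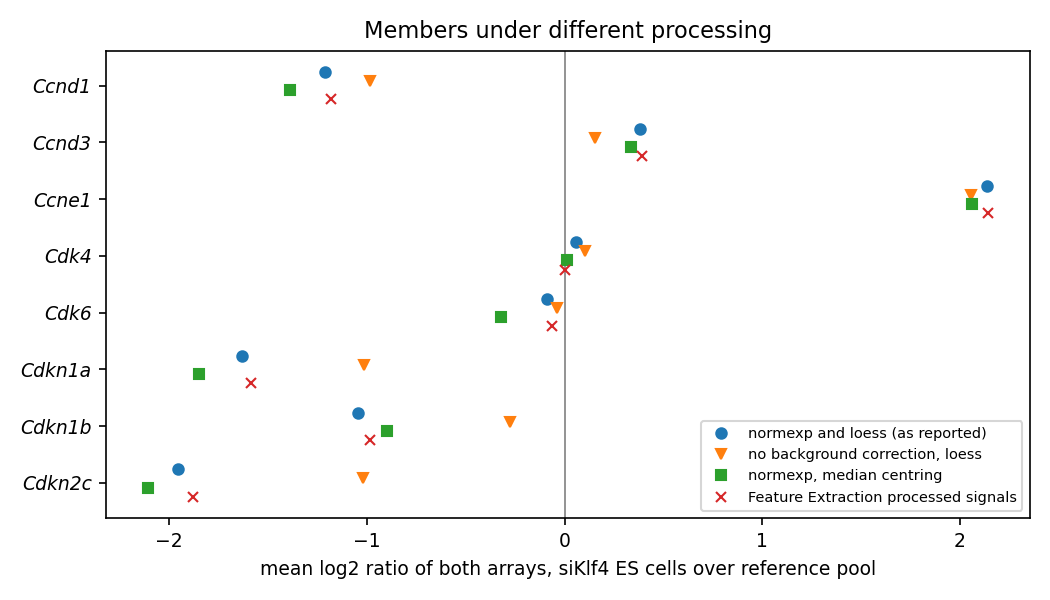
The mean log2 ratio of both arrays is plotted for each of the 8 genes (brighter probe of Ccnd1) under the processing as reported, without background correction, with median centring and from the processed signals of the scanner software. Ccne1 stays above 2 in each, the inhibitors move towards 0 without background correction, and Cdk4 and Cdk6 stay near 0.

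Promoter sequences from RefSeq (GRCm38.p6, from 250 bases before to 50 bases after each start) were matched for 7 of the 8 genes, in 10 windows. The stretches below, 120 bases directly before the start, are those of Ccne1, the gene farthest above the pool, and of Cdkn2c and Cdkn1a, the lowest genes with a measured ratio; capitals mark the GC box GGGCGG, a site for Sp and Klf family factors, searched on both strands. They come from chr7:38107491-38107610 (minus strand), chr4:109666757-109666876 (minus strand) and chr17:29093649-29093768 (plus strand), all written 5′ to 3′ in the direction of the gene.
Ccne1: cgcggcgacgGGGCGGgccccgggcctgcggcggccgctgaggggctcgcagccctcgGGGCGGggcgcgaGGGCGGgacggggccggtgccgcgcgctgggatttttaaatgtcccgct
Cdkn2c: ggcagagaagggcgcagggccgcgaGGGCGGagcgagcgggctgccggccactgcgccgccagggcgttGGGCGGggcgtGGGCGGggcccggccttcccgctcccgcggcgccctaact
Cdkn1a: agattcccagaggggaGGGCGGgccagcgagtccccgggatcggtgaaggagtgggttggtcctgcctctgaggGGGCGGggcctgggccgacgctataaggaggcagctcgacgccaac

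Ccne1 and Cdkn2c, which lay on opposite sides of the pool, each held 4 GC boxes in the whole window, 3 of them in the stretch shown, and Cdkn1a held 2. At least 4 were found in 5.49% of all 32851 windows, at least 2 in 19.5% and at least 1 in 35.7%. The windows of the 3 stretches shown were rich in G and C, at 76.0%, 73.3% and 64.7% against a median of 52.7% over all windows. A further Cdkn1a start and a further Cdkn2c start held 0 GC boxes, and their windows were 54.7% and 44% G and C. The Klf-type box CACCC occurred in 57.5% of all windows, and in most windows of these genes. The E2F words TTTCCCGC, TTTGGCGC, TTTCGCGC and TTTGCCGC, searched on both strands, were in none of the 10 windows of these genes. They were in 2.26% of all windows, so their absence from so few windows says little.

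Cdk4, whose ratio did not pass the test, is shown because its promoter held 4 copies of the E box CACGTG, the site of Myc and Max, which 8 of the 32851 windows (0.0244%) did and which occurred at least once in 7.15%. The word reads the same on both strands and is in capitals in the 180 bases before the start, chr10:127063355-127063534 (plus strand).
Cdk4: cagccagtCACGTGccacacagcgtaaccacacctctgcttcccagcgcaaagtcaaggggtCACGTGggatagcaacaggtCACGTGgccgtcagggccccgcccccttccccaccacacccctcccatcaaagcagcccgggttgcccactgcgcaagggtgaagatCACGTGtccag

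Among the genes upstream of the D-type cyclins, growth factor-responsive factors were counted first. Among the 13 measured genes, 8 passed as lower, 1 as higher and 4 in neither direction, against 31.4% of all probes lower and 31.6% higher, and the median log2 ratio was -0.68. At 2-fold, 5 were lower and 1 higher, against 5.19% and 5.08% of all probes. Outside the range of the negative control spots lay 7 of the 8 lower genes and the 1 higher gene (all probes: 10.8% and 12.1%). The immediate-early factors Egr1 (-5.32), Fosl1 (-3.19), Fos (-2.93) and Jun (-2.69), which form or cooperate with AP-1 at such promoters, were the lowest. The ES signal of Jun, 169 and 183 units, lay only just above the limit of 155 and 178. Mycn, the Myc family member of early embryonic cells, was the higher gene at 3.53, or 11.6-fold, whereas Myc, named after its value was seen, stood at -0.80. Without background correction Egr1 stood at -3.91, Fosl1 at -1.98, Fos at -1.77, Jun at -1.23 and Mycn at 2.52.

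The other CDK inhibitors were lower in 3 of 4 cases and higher in 1 (all probes: 31.4% lower, 31.6% higher), with a median of -0.89. The median was -0.77 with the ES signal of Cdkn2b raised to the limit. At 2-fold, 2 were lower, among them Cdkn2b, and 1 was higher, against 5.19% and 5.08% of all probes. Cdkn2b lay within 2-fold with its ES signal raised to that limit. Cdkn2b (p15), an INK4 gene, lay under the ES channel's limit on both arrays; its log2 ratio was -1.47 with background correction and -0.36 without, and no fold is given. Cdkn2d (p19) stood at -1.02 ± 0.037 (SD, n = 2) and Cdkn2a, the locus of p16 and Arf, at -0.75 ± 0.049 (-0.42 and -0.29 without background correction). Cdkn1c (p57) was the exception among both inhibitor families at 1.21 ± 0.16, which fell to 0.36 without background correction. The reference signal of Cdkn1c, 54.4 and 60.0 units, lay only just above the limit of 40.9 and 58.4.

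Among other cyclins and CDKs, the test called 12 of the 19 measured genes higher and 4 lower, beside 31.6% and 31.4% of all probes, 3 missed it, and the median was 0.25. At 2-fold the list held 2 higher and 2 lower genes, against 5.08% and 5.19% of all probes. Ratios outside the range of the negative control spots were held by 6 of the 12 and 2 of the 4 (all probes: 12.1% and 10.8%). Ccnf, 1 of the 12, was not above the limit in the ES channel. The mitotic cyclin gene Ccnb1 stood at 1.50, Cdk7, the kinase that activates other CDKs, at 1.22 (0.80 without background correction) and the S-phase cyclin gene Ccna2 at 0.97. The Cdk2 gene itself, partner of cyclin E and named after its value was seen, stood at 0.96 and 0.87 on the 2 arrays, 1.89-fold above the pool (adjusted p = 1.86e-05, limma). Ccng2, a cyclin associated with cell cycle arrest, was lowest at -1.85, and Cdk14 stood at -1.41 (-0.64 without background correction).

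In the Rb and E2F group, 6 of 11 were higher and 5 lower, where 31.6% and 31.4% of all probes were, at a median of 0.25. E2f7, 1 of the 5, did not exceed the ES channel's limit. At 2-fold 2 were higher and 1 lower, against 5.08% and 5.19% of all probes. Outside the range of the negative control spots lay 4 of the 6 and 3 of the 5 (all probes: 12.1% and 10.8%). The pocket protein genes lay together below the pool, with Rbl1 (p107) at -1.05, Rbl2 (p130) at -0.86 and, named after its value was seen, Rb1 at -0.79. The E2F partner Tfdp2 (1.09) and the E2F genes E2f5 (1.01) and E2f4 (0.93) lay above it. Without background correction Tfdp2 stood at 0.38, E2f4 at 0.60, Rbl1 at -0.67 and Rbl2 at -0.34.

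E2F target genes were higher in 15 of 16 cases and lower in 1, against 31.6% and 31.4% of all probes, at a median of 1.05. At least 2-fold higher were 10 of the 16, against 5.08% of all probes. Orc1, a subunit of the origin recognition complex, led at 2.30 (1.28 without background correction), followed by Cdca7 at 1.56 and the replicative helicase genes Mcm6 at 1.36, Mcm3 at 1.35 and Mcm2 at 1.34. The thymidine kinase gene Tk1, named after its value was seen, was the lower one at -0.70. Of 14 of these genes with a promoter window, 9 held an E2F word, against 2.6% of all genes with a window. So did 3 of 8 in the Rb and E2F group, 2 of 17 other cyclins and CDKs and 1 of 3 other CDK inhibitors. An E2F word was also in 3 of 14 genes that act on the stability or activity of G1 regulators. Among the growth factor-responsive factors 1 of 10 held it, and among p53 and its targets 0 of 10. The count of 0 among the 7 matched G1 genes is near the share of all genes and says little about them.

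Genes that act on the stability or activity of G1 regulators were above the pool for 10 of the 16 measured and below it for 4, while 2 missed the threshold (median 0.44; all probes 31.6% higher and 31.4% lower). At 2-fold, 3 were higher and 0 lower, against 5.08% and 5.19% of all probes. Dtl, called lower, was not above the limit in either channel. Larger than any ratio of the negative control spots were 7 of the higher genes and 0 of the lower ones (all probes: 12.1% and 10.8%). Cdc34, the ubiquitin-conjugating enzyme that works with SCF ligases on p27 and other substrates, was highest at 2.13 ± 0.026, or 4.36-fold. Ddb1, an adaptor of Cul4 ligases, and the inhibitory kinase gene Wee1 both stood at 1.31. Cdc25a, the phosphatase that activates Cdk2, stood at 0.97 and the SCF subunit Skp1 at 0.83. Without background correction Wee1 stood at 0.60 and Cdc25a at 0.30.

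Of 14 measured genes among p53 and its targets, 8 were higher and 6 lower, beside 31.6% and 31.4% of all probes. At 2-fold 5 were higher and 2 lower, beside 5.08% and 5.19%. Counting only ratios outside the range of the negative control spots left 5 higher and 4 lower (all probes: 12.1% and 10.8%). The median was 0.15, with Trp53inp1 at 1.94, Zmat3 at 1.43 (0.92 without background correction) and the cell death gene Bax at 1.35. Perp (-1.26) and Plk2 (-1.24) lay below the pool on the same side as Cdkn1a. Trp53 itself, named after its value was seen, stood at -0.13, inside the range of the negative control spots.

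**Figure D4:**
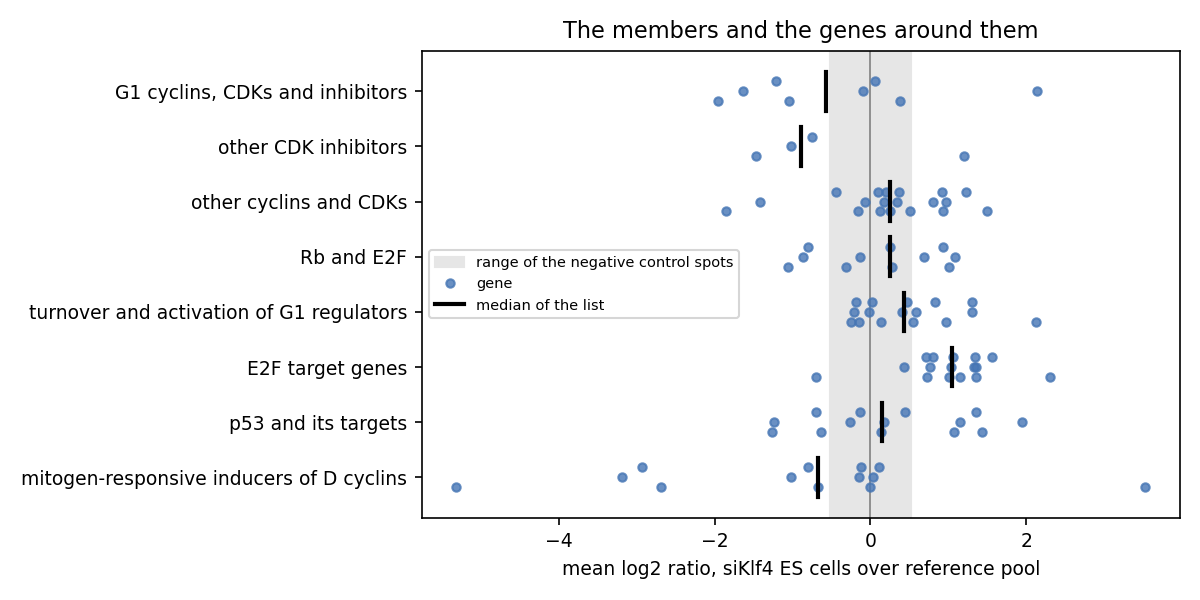
Each point is the mean log2 ratio of a gene in siKlf4 ES cells over the reference pool, by gene list, with a black bar at the median of the list and a grey band to the largest absolute log2 ratio of a negative control spot, 0.52. The E2F target genes centre on 1.05 and the G1 genes spread from -1.95 to 2.14. The other CDK inhibitors centre on -0.89, which includes Cdkn2b under its signal limit.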

How the data were processed

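The authors scanned arrays of 2 samples with Agilent Feature Extraction A.7.5.1, per the file headers. The deposited intensity values are mean spot signals, local background and signals processed by that software. The deposited log10 ratios are red over green. The deposited series table holds log10 values, which became ratios only after the mean log10 processed reference signal of each probe was subtracted. The series table setting is therefore not a check separate from the processed signals. Per the labels, ES cell RNA was in Cy3. Having only 2 arrays limits the precision.

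Background was corrected (normexp, offset 50; limma 3.58.1, R 4.3.3), each array was normalised by loess (span 0.3, control spots at weight 0), and log2 ratios of ES cells over reference were taken. Outlier spots (24 probes) were left out; the filter on the software's above-background flag removed none, so signals are read against the negative controls. RefSeq accessions named 10418 of 21052 probes, and the brightest probe stood for a gene. Mean ratios were tested against 0 (lmFit, eBayes, Benjamini-Hochberg over 21028 probes; tested on simulated data). Members, gene lists, markers and tests were chosen with earlier results of these data known. Named were all members and up to 5 genes per list with the largest passing ratio; others are said to be chosen after their values were seen. Alternatives changed background, normalisation, signal source, filter, outliers, probe choice or left out 1 array.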

Additional observations from a re-analysis of the deposited data

How the results depend on the processing

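No member changed direction under the other settings with both arrays. Of the calls, Ccnd3 lost its own when ratios no larger than those of negative control spots were not counted, and Cdkn1b dropped out among probes above the negative controls. Cdk4 gained a call without background correction and Cdk6 with median centring. Without background correction, 510 probes passed as at least 2-fold higher and 467 as at least 2-fold lower, against 1068 and 1092. A call limited to ratios larger than those of the negative control spots, which was added after seeing the data, kept 2552 probes higher and 2273 lower, with 1 member higher. The median log2 ratio of the members was -0.16 without background correction, -0.61 with median centring, -0.52 in the processed signals and in the deposited series table, -0.091 among probes above the negative controls, which leaves out Cdkn1b, and -0.44 with the mean of both Ccnd1 probes. The difference between Ccne1 and Ccnd1 was 3.04, 3.45, 3.32, 3.32 and 2.92 under the same settings, apart from the filter, which left it as reported. Without 1 of the arrays, values with no test, the median was -0.58 to -0.56 and the difference 3.33 to 3.36. Background taken from the negative control spots, added later, put a constant on each channel of each array and moved no member's call. The normexp correction estimates such a constant itself, so the unchanged calls do not test the background. Signals near the negative controls limit Cdkn1b, Cdkn2b, Cdkn1c and Jun. No paired analysis was possible because the study holds 1 group.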
